A study of Rattus norvegicus with 3 samples.

Results

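The p53 response genes Mdm2, Cdkn1a, Ccng1, Bax, Bbc3, Phlda3 and Zmat3 and the survival genes Bcl2 and Bcl2l1 were followed through single-cell RNA sequencing of wild-type rat embryonic cerebral cortex. These 9 genes, found by symbol, were 9 of the 29772 genes counted. Primary cortical cells of Rattus norvegicus, dissociated with papain, gave 3 libraries, labelled by embryonic day as E14, E16 and E18. There was 1 library per label, of wild-type cells with no treatment named beyond dissociation, and nothing separates a difference between labels from a difference between preparations. No p-value, standard deviation or standard error is given, and every interval is a 95% interval for counting error alone. The labels' protocol text also describes optional freezing and the sorting of live human cells from culture, steps that cannot all apply to rat tissue, and those actually used are not stated. Hmga2, a gene of early radial glia, did not run in label order in the radial glia-like cells described below, at 12.8 CPM (9.94–16.2), 237 CPM (232–242) and 21.7 CPM (19.9–23.6), where CPM is UMIs scaled as defined there. So a direction below compares libraries by their labels and is not a course over embryonic age.

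The transcription factor p53 responds to DNA damage and other stress, and its relatives p63 and p73 bind related DNA sites. Its target Mdm2 encodes the ubiquitin ligase that limits p53. Cdkn1a encodes p21, an inhibitor of cyclin-dependent kinases, and Ccng1 encodes cyclin G1. Bax and Bbc3 (PUMA) promote apoptosis at mitochondria, whereas Bcl2 and Bcl2l1 (BCL-X) restrain it. Phlda3 is a repressor of AKT signalling, and Zmat3 encodes an RNA-binding zinc finger protein. In the developing cortex, apoptosis removes damaged progenitors and surplus neurons. Counting at the 3′ end of transcripts cannot tell the long and short forms of Bcl2l1 apart.

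RefSeq promoter windows on the rat assembly GRCr8, covering 250 bases before to 50 bases after the start, were at hand for 6 of the 9 genes. The p53 consensus, a pair of 10-base half-sites with no spacer, was searched with up to 1 mismatch. It is its own reverse complement, so a match covers both strands. It was present in the windows of Cdkn1a and Ccng1 and in none of those of Mdm2, Phlda3, Bcl2 and Bcl2l1. Over 33469 windows of the same length, 24 (0.0717%) held such a match. The 250 bases before the start are shown for Cdkn1a (chr20:7150682-7150931, plus strand) and Ccng1 (chr10:25684877-25685126, minus strand), because these were the windows with a match. Phlda3, Mdm2 and Bcl2l1 had no match and were, like Cdkn1a and Ccng1, higher in Cajal-Retzius-like cells than in neurons labelled E16, as described below. Capitals mark the matching 20 bases, which begin at positions -201 and -242 from the start.
Cdkn1a: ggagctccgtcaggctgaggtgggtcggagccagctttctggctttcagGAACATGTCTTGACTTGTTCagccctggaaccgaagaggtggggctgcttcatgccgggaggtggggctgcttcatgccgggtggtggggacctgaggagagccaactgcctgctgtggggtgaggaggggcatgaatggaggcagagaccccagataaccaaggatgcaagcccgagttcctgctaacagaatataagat
Ccng1: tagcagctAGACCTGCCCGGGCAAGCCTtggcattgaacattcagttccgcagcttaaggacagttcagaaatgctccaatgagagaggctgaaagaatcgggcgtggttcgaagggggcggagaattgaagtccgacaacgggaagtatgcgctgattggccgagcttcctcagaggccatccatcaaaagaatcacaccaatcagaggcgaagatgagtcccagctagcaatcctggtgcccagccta
A match describes letters in a window and is no evidence of binding in these cells. Bax, Bbc3 and Zmat3 were not in the table.

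After filtering, 4286, 4977 and 5431 cells remained labelled E14, E16 and E18, with medians of 11193, 12276 and 10475 unique molecular identifiers (UMIs) per cell. Clustering gave 25 clusters, of which 2 stayed unnamed. The unnamed cells were 5 labelled E14, 1370 labelled E16 and 71 labelled E18, so 27.5% of the library labelled E16 lay outside every class compared. Clustered alone, that library had 2752 radial glia-like cells of at least 5000 UMIs, against 1867 with the libraries clustered together. Each class name below means cells like that type by marker genes, and the member genes and other listed p53 and apoptosis genes were kept out of the clustering. Radial glia-like cells, the stem cells of the cortex, numbered 368, 1941 and 1726 in label order, and intermediate progenitor-like cells 474, 415 and 1083. Newborn and maturing excitatory neuron-like cells and unsplit neuron-like cells were joined as neurons, with 3338, 605 and 2293 cells. They were joined because the newborn class held 2 cells labelled E16. The unsplit cells, 603 of them labelled E16, had markers of newborn or maturing neurons. Their naming rule also let Cajal-Retzius markers rank high, so they were not named excitatory. Cajal-Retzius-like cells, early neurons of the marginal zone marked by Reln, numbered 16, 144 and 71. Between 7 and 8 cell barcodes were shared by any pair of libraries among the cells analysed. Levels are UMIs summed over the cells of a class and library, scaled to a sum of 1000000 (CPM).

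Mdm2 was nearly level across progenitors and neurons. In radial glia it stood at 25.0 CPM (21.0–29.6), 22.9 CPM (21.3–24.6) and 21.9 CPM (20.1–23.8) in label order. Intermediate progenitors held 34.4, 34.2 and 33.5 CPM, above radial glia with intervals that did not overlap in any library, though labelled E14 the gap was narrow (29.7–39.6 against 21.0–29.6 CPM). Neurons held 28.6, 26.8 and 25.9 CPM, between these 2 classes.

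Cdkn1a had few UMIs in progenitors and neurons of every library. Its radial glia sums held 5, 16 and 30 UMIs, or 0.926 CPM (0.301–2.16), 0.491 CPM (0.280–0.797) and 1.22 CPM (0.822–1.74). None of 1650 newborn neurons labelled E14 had a Cdkn1a UMI, which allows up to 0.182% of cells with a UMI at a median depth of 7935 UMIs and sets no limit on cells expressing the gene. Neurons labelled E16 held 19 Cdkn1a UMIs, of which 11 came from 1 cell, and those labelled E18 held 27, of which 13 came from 1 cell. Their levels of 3.46 and 1.19 CPM therefore rested in large part on single cells.

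Ccng1 was higher in neurons than in progenitors. Radial glia had 68.1 CPM (61.3–75.5), 40.4 CPM (38.2–42.6) and 46.2 CPM (43.6–49.0), and intermediate progenitors 56.1, 28.3 and 33.1 CPM. Neurons had 132 CPM (129–136), 109 CPM (100–118) and 104 CPM (99.9–108). In all 3 libraries the neuron interval lay above both progenitor intervals, and within each of these classes the library labelled E14 was highest.

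Of the genes that promote apoptosis, Bax was broadly expressed and Bbc3 was mostly found in neurons. Bax stood at 220, 165 and 164 CPM in radial glia, 226, 171 and 169 CPM in intermediate progenitors and 290, 266 and 240 CPM in neurons. Bbc3 stood at 2.04 CPM (1.02–3.64), 0.920 CPM (0.621–1.31) and 1.34 CPM (0.922–1.88) in radial glia. In neurons it stood at 28.9 CPM (27.3–30.6), 12.4 CPM (9.62–15.7) and 15.6 CPM (14–17.3). Within the neurons labelled E14 it was lower in the newborn cells, at 21.3 CPM (19–23.8), than in the maturing cells, at 33.3 CPM (31.1–35.6). The same order held labelled E18, with 13.1 CPM (11.4–14.9) and 23.3 CPM (19.4–27.7).

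Phlda3 was lower in intermediate progenitors than in radial glia in all 3 libraries, and Bcl2 in those labelled E14 and E18. Phlda3 stood at 10.2 CPM (7.67–13.3), 4.02 CPM (3.36–4.77) and 4.95 CPM (4.11–5.91) in radial glia. It was at 0.900, 0.420 and 0.644 CPM in intermediate progenitors and at 1.34, 0.182 and 0.352 CPM in neurons, so its level was highest in radial glia among these classes. Bcl2 stood at 20.4 CPM (16.7–24.5), 7.70 CPM (6.77–8.71) and 12.4 CPM (11.1–13.9) in radial glia and at 2.34 CPM (1.25–4), 4.83 CPM (3.06–7.24) and 4.59 CPM (3.47–5.94) in intermediate progenitors, where the intervals overlapped labelled E16. In neurons it was at 8.59 CPM (7.71–9.55), 7.10 CPM (5.05–9.71) and 8.19 CPM (7.06–9.46), overlapping radial glia labelled E16. In newborn neurons alone it was at 2.66 CPM (1.89–3.63) for E14 and 7.52 CPM (6.28–8.94) labelled E18, and in maturing neurons at 12 CPM (10.7–13.4) and 10.3 CPM (7.76–13.3). Labelled E14, Bcl2 was thus lower in intermediate progenitors and newborn neurons than in radial glia or maturing neurons.

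The other survival gene was higher in neurons than in progenitors. Bcl2l1 stood at 43.7, 36.3 and 35.0 CPM in radial glia, at 56.7, 56.7 and 56.8 CPM in intermediate progenitors and at 83.2, 74.9 and 86.3 CPM in neurons. Its intervals did not overlap between any 2 of these classes in any library. Zmat3 stood at 29.1, 30.1 and 34.7 CPM in radial glia, 27.2, 24.8 and 28.4 CPM in intermediate progenitors and 17.9, 29.7 and 26.8 CPM in neurons. Of these sums it was lowest in neurons labelled E14.

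**Figure D1:**
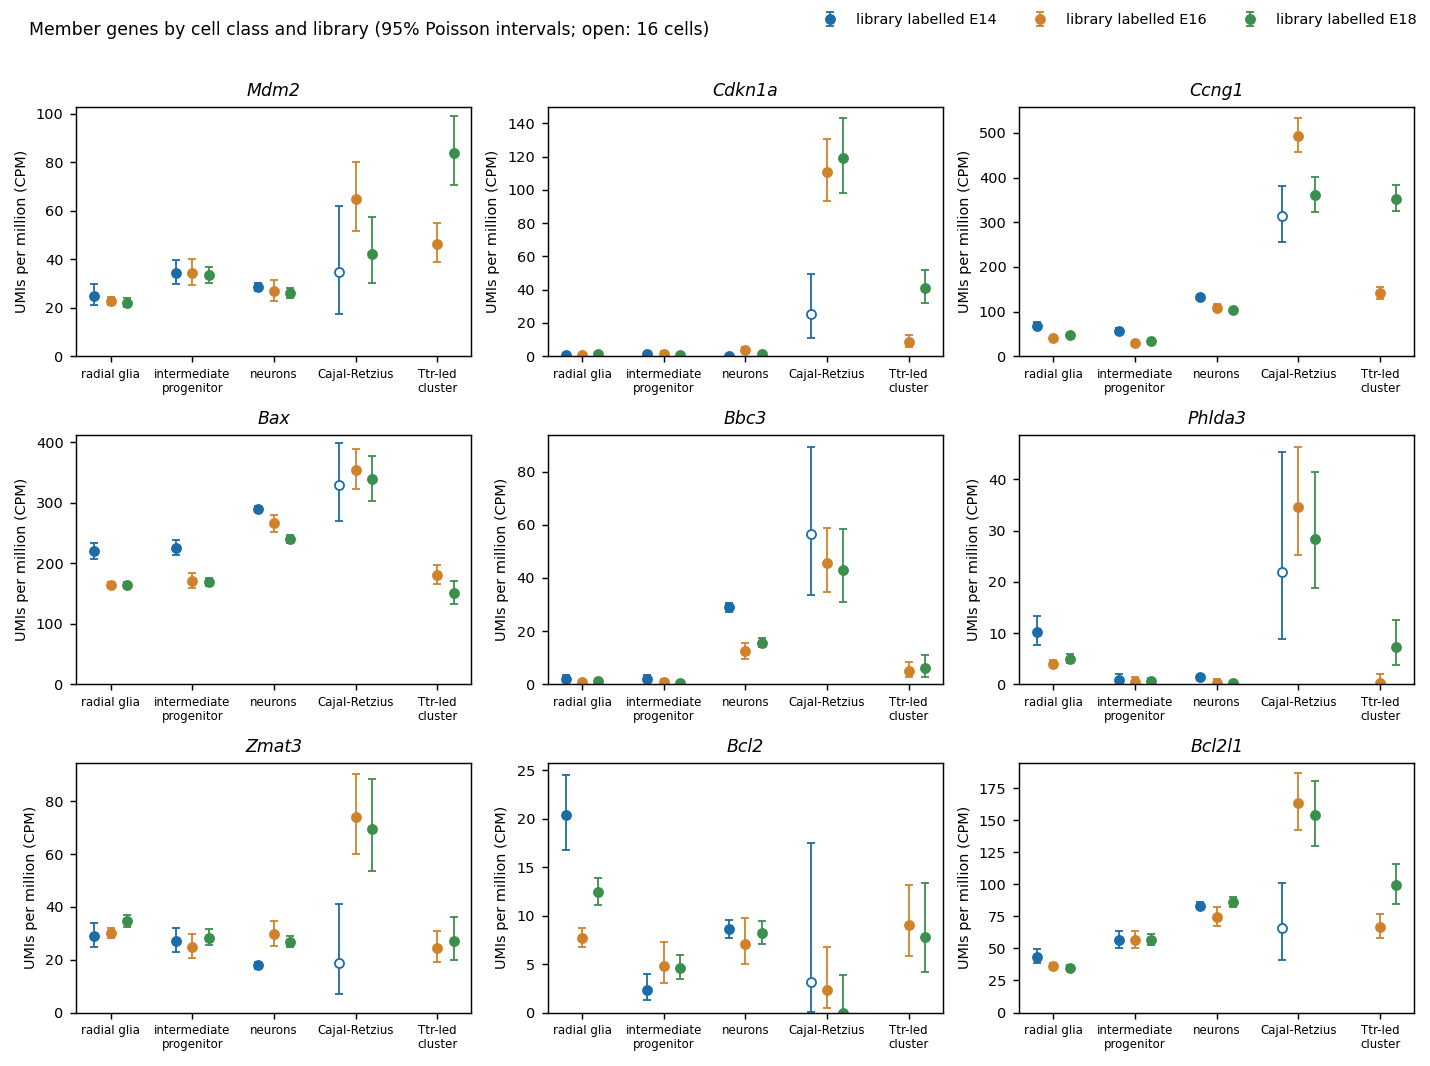
Level of each of the 9 genes, in CPM (linear axis from 0), in 5 cell classes, with the libraries as colours and 95% Poisson intervals as bars; the open point is the class of 16 Cajal-Retzius-like cells labelled E14. Cdkn1a lies under 4 CPM in radial glia, intermediate progenitors and neurons and at 111 and 119 CPM in Cajal-Retzius-like cells labelled E16 and E18.

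Between classes of 1 library, a gene was counted when its CPM differed at least 2-fold with 1 CPM added, among genes with a mean of at least 5 CPM. The added value understates folds of low genes. In neurons over radial glia labelled E14, 3 of 8 members passed, against 34% of 10191 genes tested. Bbc3 was higher, with a log2 ratio of 3.30, and Phlda3 and Bcl2 were lower, at -2.26 and -1.16. Bbc3 and Phlda3 reached the minimum only through the class where they were high. Labelled E16, 3 of 7 passed, against 30.7% of all genes, and labelled E18 again 3 of 7, against 31.2%. In both, Bbc3 (2.80 and 2.82), Ccng1 (1.41 and 1.15) and Bcl2l1 (1.02 and 1.28) were higher, and Bbc3 again reached the minimum only through neurons. Leaving out the members that did so through 1 class, 1 of 6, 2 of 6 and 2 of 6 passed in label order, with median log2 ratios of 0.29, 0.45 and 0.39, against -0.19, -0.08 and -0.09 over all genes tested. The values over all genes keep those that reached the minimum through 1 class, so they are no matched background. Nothing is read from these counts about the members as a set.

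With newborn neurons alone, 3 of 8 members passed over radial glia labelled E14, against 31.1% of all genes, and these were Bbc3 (2.87), Phlda3 (-2.57) and Bcl2 (-2.55). All 3 reached the minimum only through the class where they were high, so nothing is read from that count. Labelled E18, 3 of 7 passed, against 29.7%, and these were Bbc3 (2.59), which reached the minimum only through neurons, Bcl2l1 (1.25) and Ccng1 (1.03). In intermediate progenitors over radial glia, 2 of 7 passed labelled E14, Bcl2 (-2.68) and Phlda3 (-2.56), against 13.1%. None of 6 passed labelled E16, against 12.4%, and 1 of 6 labelled E18, Bcl2 (-1.26), against 11.5%. All 3 of these calls are of genes that reached the minimum only through radial glia, and the counts are too small to set against the shares. In maturing over newborn neurons, 1 of 7 passed labelled E14, Bcl2 (1.83, under 5 CPM in newborn neurons), against 8.43%, and none of 7 labelled E18, against 11.5%.

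Between libraries, the members past 2-fold in radial glia and in neurons were all found between E16 and E14. In radial glia labelled E16 over E14, 2 of 7 members passed, against 9.86% of 9882 genes. Both were lower, against 7.36% of genes lower, Bcl2 by a log2 ratio of -1.30 and Phlda3 of -1.16, the latter with a level under 5 CPM labelled E16. The call does not hold with 10 CPM added or without doublet removal, where no member passed. None of 6 passed for E18 over E16, against 2.68% of genes, and none of 7 for E18 over E14, against 4.38%. Radial glia labelled E16 were drawn from other clusters than the rest: 1908 of 1941 lay in 3 clusters led by Top2a, H1f1 and Tuba1c, while 362 of 368 labelled E14 and 1657 of 1726 labelled E18 lay in 3 clusters led by Aldoc, H1f5 and Tuba1c. The summed level of 11 radial glia markers was 10263, 4320 and 6117 CPM in label order. From E14 to E16, erythroid markers in radial glia went from 66.5 to 141 CPM and meningeal or fibroblast markers from 3.33 to 9.51 CPM. The part of the clusters or of these markers in the differences was not tested.

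In neurons, 1 of 7 members passed for E16 over E14, against 11.8% of 9626 genes, and this was Bbc3, with a log2 ratio of -1.16. That call was lost with per-cell means or with 10 CPM added. None of 7 passed for E18 over E16, against 5.85%, or for E18 over E14, against 4.41%. Neurons labelled E14 were 1686 maturing, 1650 newborn and 2 unsplit cells, whereas 603 of the 605 labelled E16 were not split into newborn and maturing, so the share of maturing cells there is not known. Bbc3 was higher in maturing than in newborn neurons. From E14 to E16 the summed radial glia markers in neurons also went from 240 to 560 CPM, meningeal or fibroblast markers from 0.522 to 10.2 CPM and erythroid markers from 334 to 216 CPM. The part of these markers or of maturing cells was not tested. In newborn neurons alone, 1 of 7 passed for E18 over E14, against 3.32%, and this was Bcl2, higher by 1.22 and under 5 CPM labelled E14. In maturing neurons none of 7 passed for E18 over E14, against 5.1%. In intermediate progenitors none of 5 passed for E16 over E14 (10.9% of genes), E18 over E16 (3.37%) or E18 over E14 (3.39%). The Bcl2 call in newborn neurons was lost in most other settings and its ratio was -0.06 when the neuron classes were joined. These cells came from different clusters, 1641 of 1650 labelled E14 from those led by Selenom and Sstr2 and 1879 of 1895 labelled E18 from those led by Pcp4 and Neurod1. Erythroid markers summed to 813 and 159 CPM in them, and the part of either was not tested.

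**Figure D2:**
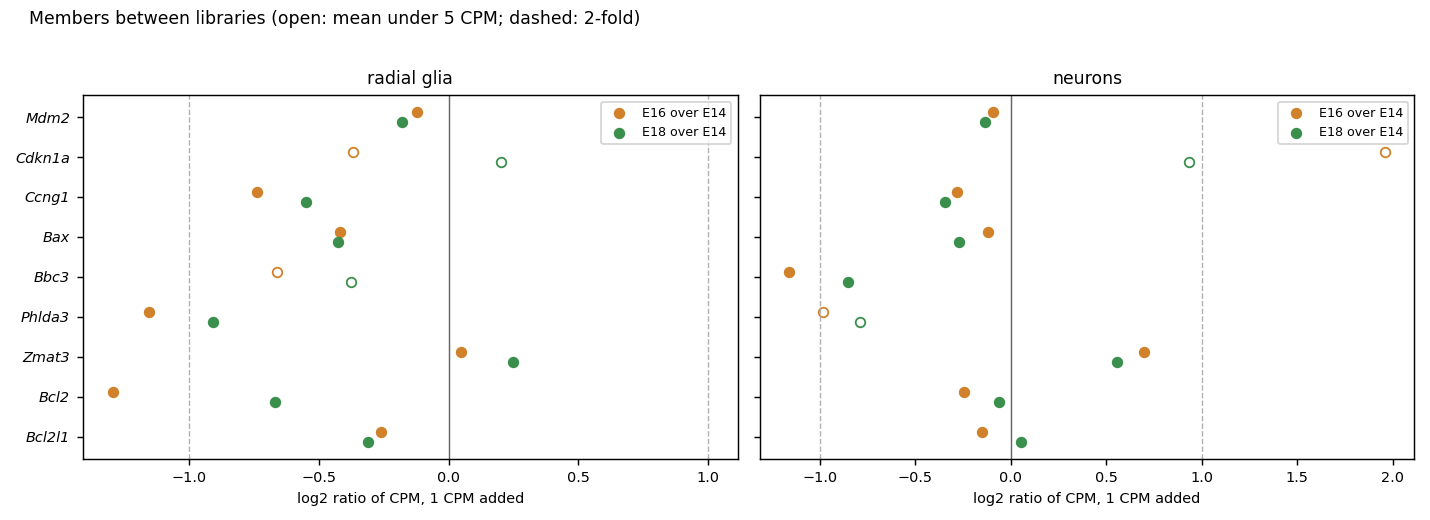
Log2 ratio of CPM, with 1 CPM added, for E16 over E14 and E18 over E14 in radial glia and in neurons; filled points have a mean of at least 5 CPM, and dashed lines mark 2-fold. Filled points left of the lower line are Bcl2 (-1.30) and Phlda3 (-1.16) in radial glia and Bbc3 (-1.16) in neurons, all for E16 over E14.

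Cajal-Retzius-like cells held most members at levels not seen in the other neurons. Cdkn1a stood at 111 CPM (93.6–131) for E16 and 119 CPM (98.0–143) labelled E18, and at 25.1 CPM (10.9–49.5) in the 16 cells labelled E14. Ccng1 stood at 314 CPM (255.6–382), 494 CPM (457–534) and 360 CPM (323–400) in label order. Phlda3, nearly absent from other neurons, stood at 22.0 CPM (8.84–45.3), 34.7 CPM (25.3–46.4) and 28.4 CPM (18.7–41.4). All 3 genes lay above neurons of the same library in every library.

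The remaining targets were also high in these cells. Mdm2 stood at 34.6, 64.7 and 42.1 CPM in label order, Zmat3 at 18.8, 74.0 and 69.5 CPM, Bax at 330, 355 and 339 CPM and Bbc3 at 56.5, 45.5 and 43.2 CPM. In the 16 cells labelled E14, the intervals of Mdm2, Zmat3, Bax and Bcl2l1 overlapped those of neurons. Of the survival genes, Bcl2l1 stood at 66.0, 163 and 154 CPM, while Bcl2 had 1, 3 and 0 UMIs. The count of 0 labelled E18 allows up to 3.16 CPM.

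Over neurons, 7 of 8 members tested passed labelled E16, all higher, against 9.61% of 9841 genes in either direction and 6.58% higher. They were Phlda3 (log2 ratio 4.92), Cdkn1a (4.65), Ccng1 (2.17), Bbc3 (1.80), Zmat3 (1.29), Mdm2 (1.24) and Bcl2l1 (1.12), and the one that did not was Bax, at 0.41. Labelled E18, 5 of 8 passed, all higher, against 14.8% of 9910 genes in either direction and 10.4% higher. They were Cdkn1a (5.78), Phlda3 (4.44), Ccng1 (1.78), Bbc3 (1.42) and Zmat3 (1.34). Cdkn1a and Phlda3 reached the minimum in both libraries only through Cajal-Retzius-like cells, so they had to differ. Without them, 5 of 6 passed labelled E16 and 3 of 6 labelled E18, with median log2 ratios of 1.27 and 1.08, against 0.06 and 0.08 over all genes tested. The medians and shares over all genes keep those that reached the minimum through 1 class, so they are no matched background. These values are a description, since the class was picked with the members' levels in view. Over radial glia, 9 of 9 passed labelled E16, against 33.1% of genes, and 7 of 9 labelled E18, against 34.6%; Bcl2, at 3 and 0 UMIs, was the one lower, and Mdm2 (0.91) and Zmat3 (0.98) did not pass labelled E18. Cdkn1a, Phlda3, Bbc3 and Bcl2 reached the minimum there only through the class where they were high, so nothing is read from these counts. Between the libraries labelled E16 and E18, none of 8 members passed within the class, against 10.4% of genes, with log2 ratios of those tested, E18 over E16, from -0.61 (Mdm2) to 0.10 (Cdkn1a). A list of 11 dissociation stress genes, such as Fos and Jun, summed to 488 and 440 CPM in Cajal-Retzius-like cells labelled E16 and E18. In neurons it summed to 493 and 412 CPM. Erythroid markers, a sign of free RNA, summed to 212 and 111 CPM against 216 and 147 CPM. Radial glia markers summed higher in Cajal-Retzius-like cells, to 719 and 671 CPM against 560 and 382 CPM, and newborn neuron markers lower, to 1222 and 993 CPM against 1435 and 1706 CPM. The part of the stress genes or of these markers was not tested.

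**Figure D3:**
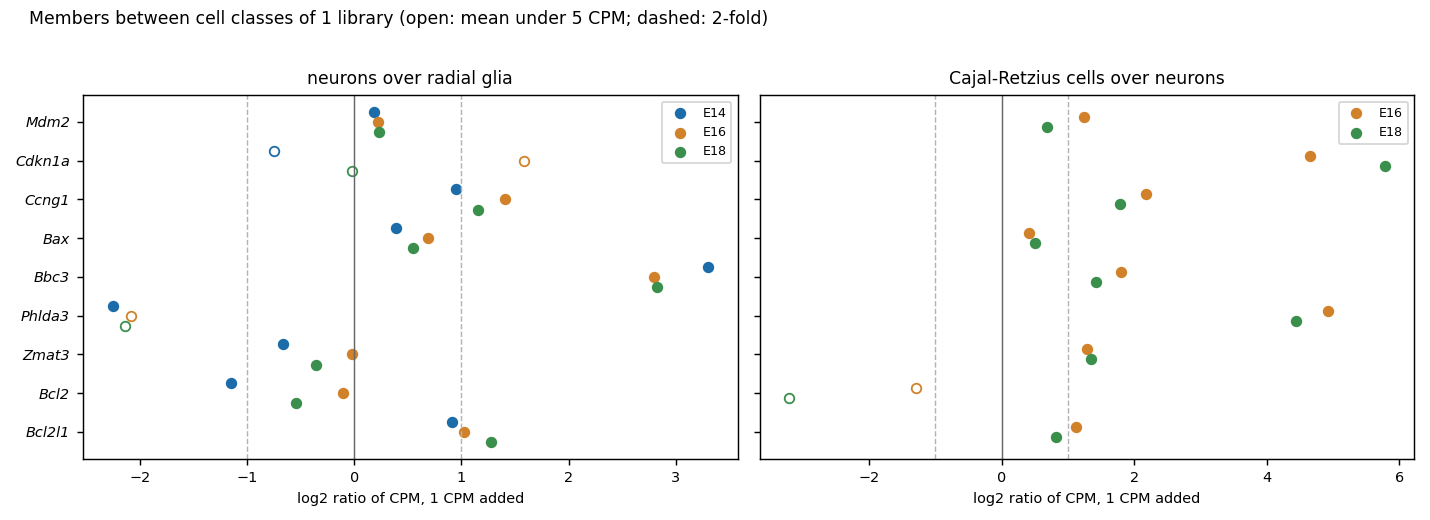
Log2 ratio of CPM, with 1 CPM added, between classes of the same library for neurons over radial glia (left) and Cajal-Retzius-like cells over neurons (right, no E14 because the class held 16 cells); open points have a mean under 5 CPM, and those of Bcl2 on the right rest on 3 and 0 UMIs. On the right, Cdkn1a lies at 4.65 and 5.78 and Phlda3 at 4.92 and 4.44, while Bax stays within 2-fold.

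A small class carried much of the Cdkn1a signal. Cajal-Retzius-like cells were 2.89% of cells labelled E16 and held 49.7% of that library's 290 Cdkn1a UMIs, and were 1.31% of cells labelled E18 with 44.0% of its 257. Labelled E14 they held 8 of 37 Cdkn1a UMIs. A Cdkn1a UMI was found in 5 of 16, 64 of 144 and 37 of 71 Cajal-Retzius-like cells, with no more than 11 UMIs in any of them, against 0.824% of radial glia labelled E16 and 1.51% labelled E18. Median depths were 8492 and 12284 UMIs for Cajal-Retzius-like cells and 15261 and 12820 for radial glia labelled E16 and E18. A cluster led by Ttr, described below, held 25 Cdkn1a UMIs labelled E16 and 68 labelled E18, and unnamed cells held 40 labelled E16. The 21, 26 and 19 microglia-like cells, in a cluster whose first gene was the endothelial Cldn5, held 11, 21 and 7. Microglia markers were near 0 in Cajal-Retzius-like cells, where 3 of 9 had a UMI labelled E16 and 1 of 9 labelled E18, summing to 2.31 and 1.05 CPM.

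Tp73, which encodes p73 and is a known transcript of Cajal-Retzius cells, followed the same cells. It stood at 270, 509 and 358 CPM in Cajal-Retzius-like cells in label order, against 0.0993, 2.73 and 0.0881 CPM in neurons. All 5, 64 and 37 Cajal-Retzius-like cells with a Cdkn1a UMI also had a Tp73 UMI, against 90.9%, 81.2% and 70.6% of those without one.

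The few Cajal-Retzius-like cells without a Tp73 UMI, 15 labelled E16 and 10 labelled E18, were of similar depth to the rest, with medians of 8737 against 8418 UMIs and 13127 against 11969 UMIs. They held no Cdkn1a UMI, where cells with Tp73 held 124 and 139 CPM, and the exact upper bounds for the count of 0 were 27.0 and 27.4 CPM. Ccng1 stood at 102 CPM (56.0–172) and 119 CPM (68.0–193) in cells without a Tp73 UMI and at 540 CPM (499–584) and 400 CPM (358–446) in cells with one. Those without one were near the neuron levels of Ccng1. Bax overlapped, with 278 CPM (197–382) against 364 CPM (330–400) labelled E16 and 245 CPM (169–345) against 354 CPM (315–398) labelled E18. Bcl2l1 was lower in cells without a Tp73 UMI in both libraries, at 80.5 CPM (40.2–144) against 173 CPM (150.1–199) labelled E16 and 74.3 CPM (35.7–137) against 167 CPM (139.9–197) labelled E18. Labelled E16 only, the intervals were also apart for Mdm2, at 14.6 CPM (1.77–52.9) against 70.6 CPM (56.2–87.7), and for Phlda3, with no UMI against 38.8 CPM (28.3–51.9). Bbc3, Zmat3 and Bcl2 overlapped in both libraries. Whether the cells without Tp73 were wrongly clustered neurons was not tested.

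**Figure D4:**
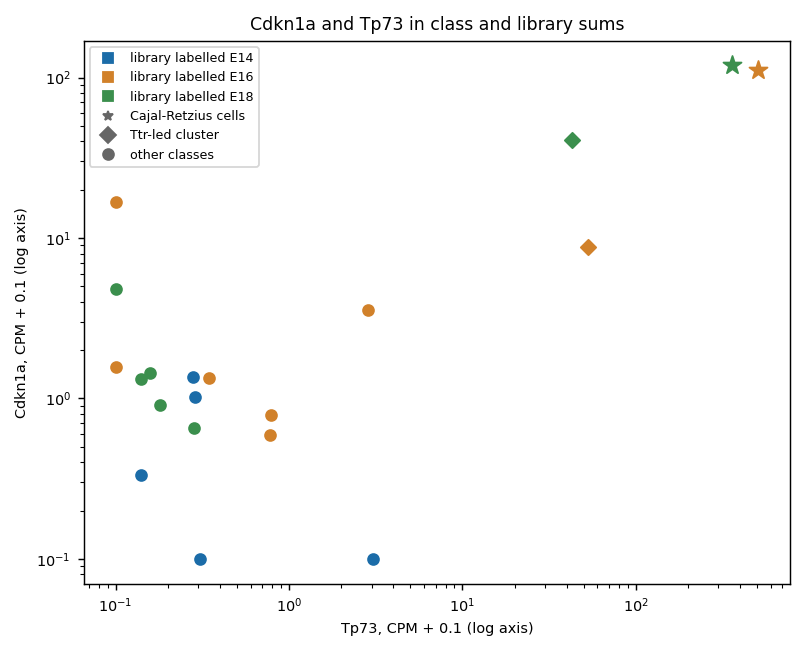
Cdkn1a against Tp73, each as CPM plus 0.1 on a log axis, in 20 sums of a class in a library with at least 50 cells; colours are libraries and stars are Cajal-Retzius-like cells. The stars lie at 509 and 358 CPM of Tp73 and 111 and 119 CPM of Cdkn1a, above all other sums on both axes.

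At a fixed depth of 5000 UMIs, Ccng1 was found more often in Cajal-Retzius-like cells with a Cdkn1a UMI than in those without in both libraries, and Phlda3 in the one labelled E16. Labelled E16, Phlda3 was present in 31.2% (18.7–46.3) of 48 cells with Cdkn1a and 7.69% (3.15–15.2) of 91 without. Ccng1 was present in 93.8% (82.8–98.7) and 68.1% (57.5–77.5). Labelled E18, Ccng1 was present in 100% of 25 cells with Cdkn1a and 60.0% (44.3–74.3) of 45 without, while for Phlda3 the shares of 28% (12.1–49.4) and 8.89% (2.48–21.2) had overlapping intervals. The intervals of Mdm2, Bax, Bbc3 and Zmat3 overlapped in both libraries.

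A cluster led by Ttr and the cilia genes Dynlrb2 and Cfap126, with 8 markers of the cortical hem raised, also had Cdkn1a UMIs. It held 155 cells labelled E16, 56 labelled E18 and none labelled E14. Its Cdkn1a level was 8.64 CPM (5.59–12.8) and 41.0 CPM (31.8–51.9), its Ccng1 level 140 CPM (127–155) and 353 CPM (325–383), and its Mdm2 level 46.3 CPM (38.8–54.9) and 83.7 CPM (70.4–98.9). Over radial glia, 1 of 6 members passed labelled E16 (Ccng1, 1.77), against 22.9% of genes, and 4 of 8 labelled E18, against 38.3%: Cdkn1a (4.24), Ccng1 (2.91), Mdm2 (1.89) and Bcl2l1 (1.48). These counts are near or below the background shares, and Cdkn1a reached the minimum only through the cluster, so they set the members apart from other genes in neither library. Bax was at 182 and 151 CPM and Phlda3 at 0.346 and 7.23 CPM. Between its libraries, 2 of 8 passed for E18 over E16, against 14.7%, Cdkn1a (2.12) and Ccng1 (1.32). At 5000 UMIs per cell the shares of cells with these genes had overlapping intervals, at 31.3% (24–39.4) and 38.8% (25.2–53.8) for Ccng1 and 2% (0.414–5.73) and 6.12% (1.28–16.9) for Cdkn1a. Labelled E18, 1 cell held 234 UMIs of the 7 targets, 21.1% of those in the cluster.

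Tp73 was present here too, at 52.9 and 42.8 CPM. In cells of this cluster with a Tp73 UMI, 37 labelled E16 and 18 labelled E18, Ccng1 stood at 296 CPM (263–332) and 507 CPM (464–552), against 62.3 CPM (51.6–74.5) and 109 CPM (85.0–138) in those without. Cells with Tp73 were deeper, with medians of 24643 against 13011 UMIs and 41910 against 11809 UMIs, and the part of depth was not tested. Of the 68 Cdkn1a UMIs labelled E18, 21 were in 1 cell.

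The share of cells with UMIs of at least 3 of the 7 p53 targets, counted after thinning each cell to 5000 UMIs, restates the levels given above per cell and is no separate evidence on the classes. In Cajal-Retzius-like cells it was 55.4% (46.7–63.8) of 139 cells labelled E16 and 45.7% (33.7–58.1) of 70 labelled E18. Neurons had 11.6% (10.5–12.7), 8.67% (6.5–11.3) and 9.34% (8.16–10.6) in label order. Radial glia had 6.89% (4.42–10.2), 3.59% (2.79–4.54) and 5.17% (4.15–6.35), the first of which was 4.52% (2.79–6.90) when the library labelled E14 was clustered alone, and intermediate progenitors 6.32%, 2.56% and 3.38%. The Ttr-led cluster had 13.3% (8.34–19.8) labelled E16, but 5.20% (2.41–9.65) when that library was clustered alone. In no progenitor or neuron class did the top 1% of cells hold more than 5.80% of the thinned UMIs of the 7 targets together. Without thinning this share was 7.70% in radial glia labelled E14. These shares pool the targets and do not describe a low gene such as Cdkn1a. Thinning left out 34, 74 and 82 radial glia and 124, 28 and 76 neurons under that depth. Without thinning, the shares were 36.1%, 34.1% and 29.5% in radial glia, 42.2%, 26% and 29.2% in neurons, and 75.0% and 78.9% in Cajal-Retzius-like cells labelled E16 and E18.

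**Figure D5:**
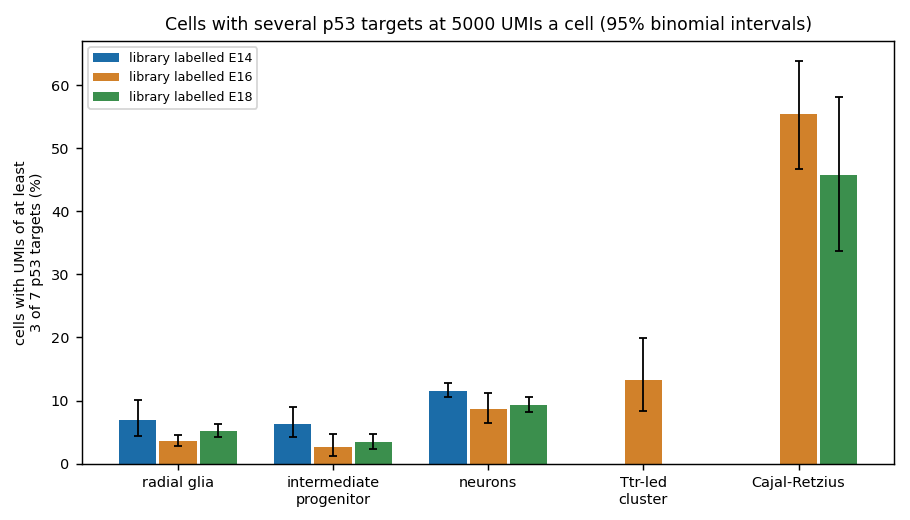
Percent of cells with UMIs of at least 3 of the 7 p53 targets at 5000 UMIs per cell, by class and library, with 95% binomial intervals; classes with fewer than 50 cells at that depth are not drawn. Cajal-Retzius-like cells stand at 55.4% and 45.7%, and radial glia, intermediate progenitors and neurons between 2.56% and 11.6%.

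Within radial glia, Bax and Phlda3 were higher in cells called S phase than in cells called G2 or M phase in all 3 libraries. Bax stood at 255, 179 and 187 CPM in S phase calls and 199, 160 and 149 CPM in G2 or M calls. Phlda3 stood at 18.9 CPM (12.4–27.4), 7.63 CPM (5.86–9.76) and 7.24 CPM (5.65–9.13) in S phase calls and 6.19 CPM (3.73–9.67), 2.79 CPM (2.17–3.54) and 3.56 CPM (2.62–4.74) in G2 or M calls. The intervals of both genes were apart in every library at full depth. Thinned to 5000 UMIs, those of Phlda3 overlapped labelled E14, at 15.2 CPM (6.12–31.4) against 8.05 CPM (3.23–16.6), and E18, at 7.65 CPM (4.95–11.3) against 3.09 CPM (1.64–5.28). Those of Bax then overlapped labelled E14, at 243 CPM (200.5–293) against 197 CPM (168–228), and E16, at 177 CPM (161–195) against 169 CPM (159–179). Ccng1 went the other way, with 51.7, 36.5 and 39.8 CPM in S phase calls and 72.7, 41.6 and 53.3 CPM in G2 or M calls, but labelled E14 and E16 its intervals overlapped. Mdm2 and Bcl2l1 were also lower in S phase calls in all 3 libraries. Their intervals were apart only labelled E18 for Mdm2 (16.4 against 25.5 CPM) and labelled E16 for Bcl2l1 (29.2 against 38.8 CPM). Thinned to 5000 UMIs, these overlapped too. Calls are ranges of a score, 24, 4 and 89 cells lay near a boundary, and only 2 radial glia labelled E16 were called G1, so nothing is read from G1 there. Cdkn1a had at most 16 UMIs in any phase of any library.

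Another 38 p53 targets were compared between Cajal-Retzius-like cells and neurons. Of 28 tested labelled E16, 7 were higher and none lower, against 6.58% of all genes higher and 9.61% either way, with a median log2 ratio of 0.48. Labelled E18, 9 of 28 were higher and 2 lower, against 10.4% higher and 14.8% either way, with a median of 0.64. Of the genes called, 5 labelled E16 and 7 labelled E18 were under 5 CPM in the lower class and reached the minimum only through the other, so these counts support nothing further. Pidd1, an adaptor of caspase-2, stood at 79.4 and 34.7 CPM labelled E16 and E18, against 1.64 and 0.837 CPM in neurons. Inka2, a kinase inhibitor, stood at 87.1 and 49.5 CPM against 8.01 and 1.23 CPM. Gtse1, a regulator of p53 that is also a G2 gene, stood at 35.5 and 15.8 CPM against 1.09 and 0.661 CPM. Ephx1, an epoxide hydrolase, was named by the rule labelled E16, at 17.0 against 0.364 CPM, and the receptor gene Eda2r labelled E18, at 12.6 against 0.0441 CPM. The 2 that were lower labelled E18 were Plk2, at 10.5 against 46.3 CPM, and Psrc1, at 4.21 against 15.2 CPM.

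Of 16 genes for p53 and its regulators, 14 were tested in the comparison of Cajal-Retzius-like cells with neurons, where 9.61% of all genes labelled E16 and 14.8% labelled E18 passed. Tp73, which reached the minimum only through Cajal-Retzius-like cells, and the phosphatase gene Ppm1d (50.9 against 23.0 CPM) were higher labelled E16, and Tp73 alone labelled E18, so these counts lie near the shares. Mdm4, the partner of Mdm2, stood at 80.2 and 91.6 CPM against 62.8 and 85.3 CPM. Of the BH3-only genes, whose products trigger apoptosis, 2 of 3 tested were higher labelled E16 and 1 of 4 labelled E18. Hrk was higher in both libraries, at 18.5 and 92.6 CPM against 7.65 and 11 CPM, and Bcl2l11 (BIM) labelled E16, at 19.3 against 7.47 CPM. Bcl2l11 labelled E18 stood at 7.37 against 3.39 CPM. None of 9 tested genes for caspases and the apoptosome passed in either library, a number too small to set against those shares. The survival gene Mcl1 stood at 74.0 and 83.2 CPM against 85.6 and 87.1 CPM.

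Between radial glia and neurons, the other p53 targets included both higher and lower genes. Over radial glia, neurons had 4 higher and 6 lower of 21 tested labelled E14, 9 and 4 of 22 labelled E16, and 6 and 4 of 22 labelled E18, against 34%, 30.7% and 31.2% of all genes past 2-fold. Of those called, 4, 6 and 5 reached the minimum only through the class where they were high. Plk2, a kinase gene, was higher in all, at 80.0, 12.8 and 46.3 CPM against 3.33, 1.07 and 0.974 CPM, and the lower genes included the cell cycle genes Gtse1, Ckap2 and Psrc1 in each. Of the BH3-only genes, 1 of 4 tested was higher and 1 lower labelled E14, and 1 of 3 was lower labelled E16 and labelled E18. The higher one was Bid, at 13.6 against 2.41 CPM, which reached the minimum only through neurons. Bcl2l11 was lower in neurons, at 1.66, 7.47 and 3.39 CPM against 11.3, 27.4 and 26.7 CPM, and so was the effector gene Bak1, at 4.64, 5.46 and 3.04 CPM against 18.5, 16.9 and 19.2 CPM. Labelled E14 and E18, Bcl2l11 and Bak1 reached the minimum only through radial glia.

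Barcodes with at least 1000 genes but more than 10% mitochondrial UMIs were removed, 706, 289 and 336 in label order. They differed from the barcodes that passed in several members. Barcodes over that maximum with fewer genes are not in these values. Of non-mitochondrial UMIs, Ccng1 made up 137 CPM (125–151), 109 CPM (88.2–134) and 111 CPM (92.7–132) there, against 127, 61.4 and 81.4 CPM in barcodes that passed. Bcl2l1 made up 102 CPM (91.6–114), 69.0 CPM (52.4–89.1) and 91.8 CPM (75.0–111) against 81.8, 46.0 and 64.4 CPM, above them in all 3 libraries. Cdkn1a, at 1.60, 11.9 and 5.30 against 0.722, 4.23 and 4.22 CPM, and Mdm2, at 31.4, 39.2 and 36.2 against 30.6, 24.3 and 28.6 CPM, were also higher in each, though with intervals apart for both only labelled E16. Bbc3 made up 22.7, 5.94 and 12.4 CPM against 24.7, 3.83 and 7.46 CPM. Bax made up 260, 227 and 194 CPM against 294, 179 and 203 CPM. Zmat3 made up 27.5, 23.8 and 52.1 CPM against 21.6, 28.8 and 32.3 CPM, with intervals apart only labelled E18 (39.7–67.2 against 31.0–33.7 CPM). Phlda3 made up 5.12, 10.7 and 2.65 CPM against 2.58, 4.10 and 3.01 CPM, with intervals apart only labelled E16 (4.89–20.3 against 3.65–4.59 CPM). Bcl2 overlapped in all 3 libraries, at 10.6, 13.1 and 14.1 CPM against 9.82, 7.87 and 9.24 CPM. Radial glia markers summed to 1146, 3153 and 2897 CPM in the removed barcodes and to 1843, 3479 and 3313 CPM in the passed. Maturing neuron markers also moved, summing to 6737, 1605 and 3961 CPM in the removed and 6196, 654 and 2498 CPM in the passed, and the part of either list in these values was not tested.

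The genes whose pattern was most like each member were ranked by Pearson's r of log2(CPM + 10) over 20 sums of a class in a library, among 6124 genes that reached 50 CPM in some sum. These correlations are a description over classes that share libraries. For Cdkn1a they were Tp73 (r = 0.93), Reln (0.93), which also served as a marker of the class, and Ajap1 (0.88). With 10 CPM added, the low Cdkn1a levels of progenitors and neurons are nearly flat. Its r therefore rests largely on a few higher sums, such as those of Cajal-Retzius-like cells (111 and 119 CPM). For Mdm2 they were Akirin1 (0.92), Tbc1d9 (0.89) and Ate1 (0.87), and for Ccng1 Slc66a2 (0.88), Tex264 (0.85) and Cystm1 (0.84). For Bax they were Trappc4 (0.96), Selenow (0.95) and Dynlt1 (0.95), for Bbc3 Efna3 (0.89), Orai2 (0.88) and Ydjc (0.86), and for Phlda3 Wnt4 (0.87), Lgals7 (0.85) and Mab21l1 (0.83). For Zmat3 they were Zdhhc21 (0.91), Ap1s2 (0.90) and Ubn2 (0.89), for Bcl2 Ptprz1 (0.77), Sipa1l1 (0.77) and Polr1g (0.77), and for Bcl2l1 Cst6 (0.94), Cox17 (0.89) and Scg5 (0.87).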

How the data were processed

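The deposited values were UMI counts per gene and barcode from 10x Genomics 3′ libraries, not normalized, with Cell Ranger 6.0.1 named as their source per the file headers. The build was mRatBN7.2, per the submitters' processing notes, and the annotation is not given in the sources used here. The 3 libraries held 62740631, 80974234 and 73727823 counts labelled E14, E16 and E18. Barcodes with at least 1000 genes and at most 10% of UMIs from 13 mitochondrial genes were kept, and the cells with the highest Scrublet scores were removed as doublets at 0.8% per 1000 cells (158, 216 and 259 cells). Cells were clustered in Scanpy 1.11.5 on 2000 variable genes, 30 components and 15 neighbours with Leiden at resolution 1. Listed genes stayed out of the variable genes, except markers, the S and G2 or M phase lists and a list of cortex genes. Clusters were named by markers, and the scoring of names was settled after the clusters were seen.

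Each class and library was summed to CPM, with exact Poisson intervals for levels and exact binomial intervals for shares, at 95% and for counting error only. A limit for 0 cells or UMIs uses 3 counts unless an exact bound is stated. The call was a 2-fold ratio with 1 CPM added at a mean of at least 5 CPM, in sums of at least 50 cells. The 9 members and all lists were chosen with earlier results of these data known. All members are named, together with Mdm4, Mcl1 and Bcl2l11; values of other genes the rule names are not reported here. Of other lists, up to 4 genes per direction with the largest ratios past 2-fold are named, and not every such gene is printed. Joined neurons, Cajal-Retzius-like cells and the Ttr-led cluster were compared after the data were seen, and Hmga2, Hrk, Tp73 splits and removed barcodes were likewise looked at then. Calculations were tested on simulated data. Alternatives covered cell filters, doublets, clustering, class joining, added CPM, minimum CPM and thinning depth.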

Additional observations from a re-analysis of the deposited data

How the results depend on the processing

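With 1 library per label, the spread between animals or preparations is unknown, and no library could be left out. No paired analysis was possible because each label has 1 library. Cajal-Retzius-like cells over neurons had between 5 and 8 members past 2-fold labelled E16 and between 4 and 6 labelled E18 under the 12 alternatives that gave a value. These counts include Cdkn1a and Phlda3, which had to differ in the reported comparison, where 9.61% and 14.8% of all genes passed; the shares of all genes under the alternatives were not computed. The stricter cell filter (2000 genes, 5% mitochondrial UMIs) left no cell with that name and gave no value for 7 comparisons. Depth limits Cdkn1a and Bbc3 in progenitors and Phlda3 in intermediate progenitors, where sums held few UMIs.

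Among library comparisons, the 2 members lower in radial glia labelled E16 than E14 became 1 under the stricter filter, at resolution 2 and with separate clustering of each library. They became 0 with no doublet removal, joined classes, 10 CPM added or a minimum of 20 CPM. The mean of per-cell CPM gave 1 member in radial glia for E18 over E14. The 1 member in newborn neurons for E18 over E14 became 0 under the looser filter, resolution 2, no doublet removal, doublets at 2 times the rate, separate clustering, joined classes, per-cell means, 10 CPM added and a minimum of 20 CPM, and became 2 with no minimum. Its Bcl2 ratio turned to -0.0612 with joined classes. The 1 member in neurons for E16 over E14 became 0 with per-cell means or 10 CPM added and 2 with no minimum, which also gave 1 member for E18 over E16 and 5 in neurons over radial glia labelled E16. The count in neurons over radial glia labelled E16 was 2 at its lowest, and the Bcl2l1 ratio there fell as far as 0.87, under 2-fold. In newborn neurons over radial glia labelled E14, a minimum of 20 CPM gave 0. The cause of these changes was not tested.

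Shares of cells with at least 3 of 7 targets moved with depth by construction. At 2000 UMIs they were 0.549%, 0.310% and 0.526% in radial glia, 1.34% and 1.43% in newborn neurons labelled E14 and E18, and 1.67% in neurons labelled E16. Without thinning they were 36.1%, 34.1% and 29.5%, then 26.8% and 25.0%, then 25.95%. Separate clustering gave 4.11% in radial glia labelled E18, 4.52% in those labelled E14 (from 6.89%) and 5.20% in the Ttr-led cluster labelled E16 (from 13.3%). The Cdkn1a log2 ratio of G1 over G2 or M calls in radial glia labelled E16, from 2 G1 cells with no UMI, was -0.45 and became -0.52 after thinning; its G1 side is the added 1 CPM alone, so it describes no difference.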
